A study of Saccharomyces cerevisiae with 10 samples.

Results

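The plasma membrane proton pump and *HSP30* family comprised 9 of the 6612 transcripts in the tables, found by their systematic names. They are the pump gene *PMA1* (YGL008C) and its copy *PMA2* (YPL036W), the proteolipid genes *PMP1* (YCR024C-A) and *PMP2* (YEL017C-A), the kinase genes *PTK2* (YJR059W) and *HRK1* (YOR267C), and the membrane protein genes *HSP30* (YCR021C), *YRO2* (YBR054W) and *MRH1* (YDR033W). The set was selected on function with earlier results of these libraries in view, and the difference between strains in normalized counts was among the values that chose it. That difference is therefore given for the members as a description. Calls that the fit across all transcripts made for them are counted as part of that description, and nothing is read from them. All 9 members reached 10 estimated counts throughout the libraries, as did 5987 of the 6612 transcripts, and the lowest count of any *PMA2* library was 889.

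Pma1 is the essential proton ATPase of the yeast plasma membrane. It spends ATP to pump protons out of the cell, which sets the cytosolic pH and drives the uptake of many nutrients. The small proteolipids Pmp1 and Pmp2 bind the pump, and the kinases Ptk2 and Hrk1 take part in its activation when glucose is present. Hsp30 is a membrane-spanning protein that heat, ethanol and weak acids induce and that restrains the pump under stress, and Yro2 and Mrh1 are its relatives in the plasma membrane.

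RNA was sequenced from 5 cultures of BY, the laboratory strain BY4741 of *Saccharomyces cerevisiae*, and from 5 cultures of BY *UBR1* -469A>T, called the edited strain from here on, in which the promoter of the ubiquitin ligase gene *UBR1* carries the base of the wine strain RM. The study's strain list gives BY as MATa with *HIS3* and *HO* deleted, and all 10 cultures share this background. They grew in parallel without treatment in synthetic complete medium for about 7 hours, to an optical density of about 0.40. The edited strain was made by exchanging the whole *UBR1* allele with CRISPR, and the sources used here do not give whether its 5 cultures stem from 1 clone.

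The libraries held between 71103539 and 97644549 estimated counts. The mating pheromone and receptor genes of a cells (*MFA1*, *MFA2* and *STE2*) had mean levels from 230 to 879 normalized CPM (counts scaled to library size with edgeR's TMM factors), and the alpha receptor gene *STE3* at most 5.16, which fits the mating type a. The level of *UBR1* itself was 149 ± 10.2 normalized CPM in BY and 173 ± 8.70 in the edited strain (SD, n = 5 each). Across all 5987 tested transcripts, the quasi-likelihood test of edgeR, given 2 surrogate variables, called 1269 at an adjusted p under 0.1, which is 21.2%. In 711 of them (11.9% of those tested) the level was lower in BY, and in 558 (9.32%) it was higher in BY.

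The members lie on 8 chromosomes of the R64 assembly, each as a single exon, and none overlaps another protein-coding gene. *PMA1* occupies chrVII:479910-482666 on the minus strand and *PMA2* chrXVI:482843-485686 on the plus strand. *PMP1* (chrIII:162945-163067, minus strand) and *HSP30* (chrIII:156109-157107, minus strand) are on the same chromosome arm, 5837 bases apart with 4 genes between them. *PMP2* lies at chrV:122798-122929 (minus), *PTK2* at chrX:545787-548243 (plus), *HRK1* at chrXV:822588-824867 (minus), *YRO2* at chrII:343101-344135 (plus) and *MRH1* at chrIV:508147-509109 (plus).

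*PMP1* and *PMP2* are shown in full because the pair is nearly identical yet differed in level between libraries. Their coding sequences, from RefSeq in the R64 assembly, are 123 and 132 bases long and read as follows, with capitals at the bases that differ in the alignment or stand in only one of the genes.
PMP1: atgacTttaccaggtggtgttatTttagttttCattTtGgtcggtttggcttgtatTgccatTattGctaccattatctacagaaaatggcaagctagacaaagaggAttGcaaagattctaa
PMP2: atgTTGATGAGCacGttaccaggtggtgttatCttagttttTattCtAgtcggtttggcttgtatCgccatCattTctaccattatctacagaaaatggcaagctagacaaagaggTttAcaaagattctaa
The aligned bases were 91.9% identical and the encoded residues 95.0% identical. Of the 93 stretches of 31 bases in *PMP1*, 10 also occur in *PMP2*. Since Kallisto, the program that made the counts, assigns reads by such stretches, a read that lies wholly in the shared part cannot be told apart, while a read that also covers differing bases can.

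The pump genes were 81.9% identical in coding sequence and 89.7% in protein. The longest stretch without a difference spans 74 bases, and the 90 bases around it are shown because it is where these genes are hardest to tell apart. A read that runs past it meets bases that differ. Capitals mark the bases in which *PMA2* differs.
PMA1: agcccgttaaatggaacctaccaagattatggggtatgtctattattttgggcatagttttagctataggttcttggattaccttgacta
PMA2: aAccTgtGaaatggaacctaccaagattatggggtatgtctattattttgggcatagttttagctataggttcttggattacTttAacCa
They stand at chrVII:480341-480430 and chrXVI:485166-485255. In all, 108 of the 2727 stretches of 31 bases in *PMA1* (3.96%) also occur in *PMA2*.

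The *HSP30* relatives are more distant. *YRO2* and *MRH1* shared 75.5% of the aligned coding bases and 70.8% of the residues, whereas *HSP30* shared 61.8% of the coding bases with *YRO2* and 61.4% with *MRH1*. The start of the 3 genes, with the longest identical stretch of *YRO2* and *MRH1* (32 bases), shows how far they can be told apart. Capitals mark the bases in which *MRH1* or *HSP30* differs from *YRO2*, and gaps are left out.
YRO2: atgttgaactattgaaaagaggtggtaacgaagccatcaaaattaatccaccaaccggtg
MRH1: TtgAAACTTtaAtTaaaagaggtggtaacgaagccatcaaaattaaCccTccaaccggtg
HSP30: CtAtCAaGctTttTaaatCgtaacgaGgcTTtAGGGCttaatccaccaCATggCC
These stretches lie at chrII:343111-343170, chrIV:508157-508216 and chrIII:157041-157095. The search for shared stretches covered the 5917 transcripts with a gene in the annotation, not all 6612. Among these, no stretch of 31 bases in *HSP30* or *PTK2* occurs in another transcript, and *YRO2* and *MRH1* share 2 such stretches. Few of their reads could thus be assigned to another of the genes searched.

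The pump gene *PMA1* was lower in BY than in the edited strain. In BY replicates 1 to 5 it had 3123, 3246, 3568, 3682 and 4316 normalized CPM. Edited replicates 1 to 5 had 4285, 4764, 5766, 5543 and 6499. The strains overlapped at 1 library of each, since BY replicate 5 lay just above edited replicate 1. The means were 3587 ± 467 (SD, n = 5) and 5371 ± 867 (SD, n = 5), and the log2 fold change of BY over the edited strain was -0.42 (standard error 0.044). *PMA1* is among the abundant transcripts of the cell and took from 0.320 to 0.640% of a library's estimated counts.

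*PMA2*, which encodes a second proton ATPase that cells in culture use little, was rare, with strains that overlapped. In BY it had 12.04, 13.94, 15.13, 15.96 and 15.28 normalized CPM in replicates 1 to 5. The edited strain had 14.53, 15.46, 13.70, 16.12 and 14.98. The ranges overlapped almost entirely, with a log2 fold change of -0.02 (standard error 0.053). Per length, in the authors' TPM (counts scaled by transcript length and by library), *PMA1* stood 239 to 292 times above *PMA2* in BY and 305 to 449 times in the edited strain. *PMA2* held between 0.230 and 0.432% of the counts of the pair. A small error in dividing shared reads would move *PMA2* much more than *PMA1*.

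**Figure D1:**
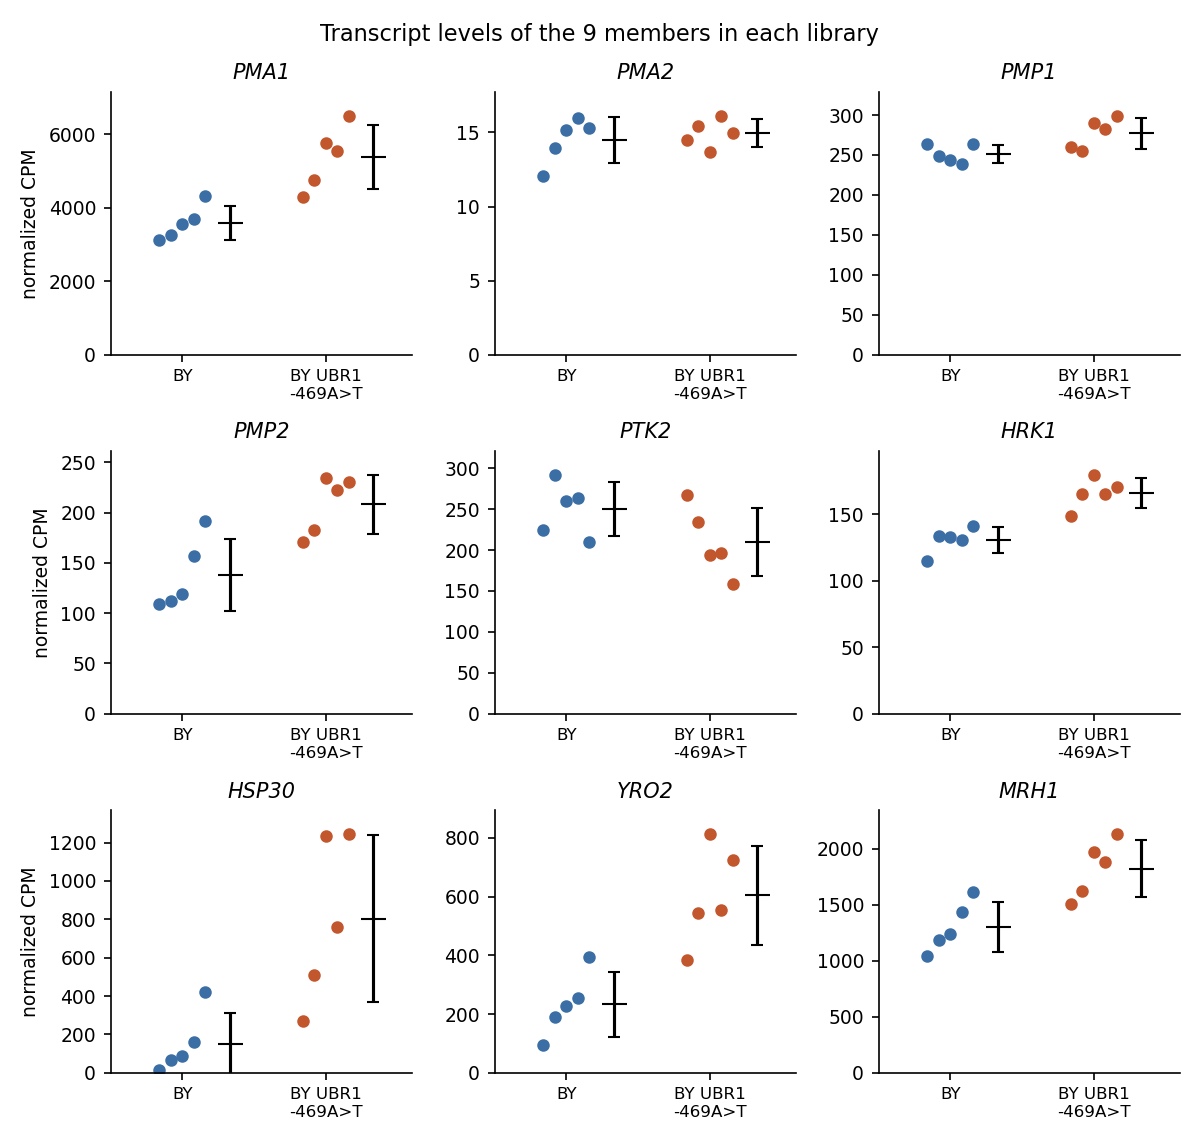
Normalized CPM of each member in every library (vertical axes start at 0), with points in replicate number order from left to right and the bars giving the mean ± SD of 5 libraries. The BY bar of *HSP30* is wider than its mean and is cut at 0, and *HRK1* is the member in which every BY library lies below every edited library.

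The proteolipid genes differed from each other. *PMP2* was lower in BY, where replicates 1 to 5 had 108.8, 112.2, 119.5, 156.7 and 191.6 normalized CPM. Its levels in the edited strain were 170.7, 182.2, 234.0, 222.4 and 230.7. BY replicate 5 reached into the range of the other strain, and the log2 fold change was -0.42 (standard error 0.061). *PMP1* varied far less, with 263.5, 248.3, 244.3, 239.2 and 263.7 normalized CPM in BY. It had 259.5, 254.4, 289.7, 282.6 and 298.9 in the edited strain, and its log2 fold change was -0.09 (standard error 0.035). The 2 highest BY libraries of *PMP1* lay within the range of the edited strain. In TPM, *PMP1* stood above *PMP2* in all 10 libraries, by 1.57 to 2.85 times in BY and by 1.36 to 1.62 times in the edited strain. Both sequences are so short that the effective length of *PMP1* ran from 37.3 to 54.3 bases between libraries, and this length enters the TPM directly.

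The kinase genes had fold changes of opposite sign. *HRK1* had 114.9, 133.9, 132.9, 131.0 and 141.1 normalized CPM in BY replicates 1 to 5. The edited libraries had 149.1, 165.4, 179.7, 165.6 and 171.0. Each BY library was below all edited ones, in CPM and in TPM, and the log2 fold change was -0.30 (standard error 0.048). Among all tested transcripts 92 (1.54%) had each BY library below each library of the other strain in CPM, and among the members *HRK1* was the 1 of 9. *PTK2* had 223.9, 291.8, 259.4, 263.8 and 210.4 normalized CPM in BY. It had 267.0, 233.9, 194.5, 196.3 and 158.4 in the edited strain, with the lowest level of all in replicate 5. Its ranges overlapped broadly, and its log2 fold change of 0.09 (standard error 0.035) was the 1 above 0 among the members. The TPM ratio of *PTK2* to *HRK1* was 1.37 to 2.01 in BY and 0.853 to 1.65 in the edited strain.

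*HSP30* showed the widest range of the family. In BY it had 16.0, 65.8, 89.3, 160.8 and 422.6 normalized CPM in replicates 1 to 5, a 26.4-fold span within 1 strain. The edited libraries had 269.1, 510.0, 1235, 760.9 and 1245, a span of 4.63-fold. BY replicate 5 lay above the lowest library of the other strain and the other 4 BY libraries lay below it. The means of 151 ± 161 and 804 ± 435 (SD, n = 5 each) differ 5.33-fold, and the log2 fold change was -2.15 (standard error 0.24). The spread of *HSP30* within strains, an SD of 1.40 on the log2 scale, ranked 2 among the 5987 tested transcripts, whose median was 0.127.

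*YRO2* followed the same pattern over a narrower range. It had 93.7, 190.5, 228.6, 255.2 and 395.4 normalized CPM in BY, and 382.4, 545.5, 813.5, 553.7 and 725.4 in the edited strain. The strains again met only where BY replicate 5 passed edited replicate 1. The means were 233 ± 110 and 604 ± 169 (SD, n = 5 each), a 2.60-fold difference, and the log2 fold change was -1.17 (standard error 0.14). *MRH1*, the most abundant of the 3, had 1044, 1189, 1237, 1439 and 1612 normalized CPM in BY. In the edited strain it had 1509, 1623, 1970, 1882 and 2133, and its log2 fold change was -0.33 (standard error 0.045). Relative to *MRH1*, itself lower in BY, the TPM ratio of *YRO2* to *MRH1* was 0.0818 to 0.224 in BY and 0.231 to 0.377 in the edited strain. The highest BY ratio lay just below the lowest edited ratio, and nothing is read from this. The ratio of *HSP30* to *MRH1* was 0.0146 to 0.250 and 0.170 to 0.598, which overlapped.

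Of the 9 members, 6 were called in the fit across all transcripts (*PMA1*, *PMP2*, *HRK1*, *HSP30*, *YRO2* and *MRH1*), all of them lower in BY, and *PMA2*, *PMP1* and *PTK2* were not, beside 21.2% called in either direction and 11.9% called lower in BY among all those tested. Nothing is read from this count, since the same contrast helped to choose the members. The median log2 fold change was -0.33 over the members and -0.0012 over all tested transcripts. The call depended on the covariates. Without surrogate variables edgeR called 0 members (7 had an unadjusted p under 0.05) and 0 transcripts in all, and with 1 surrogate variable it called 1 member, *PMA1*. With a block for the replicate number beside the 2 surrogate variables it called 2, *PMA1* and *YRO2*. Across the 20 other fits the log2 fold change of *HSP30* ran from -2.92 to -1.55, that of *YRO2* from -1.47 to -0.94 and that of *MRH1* from -0.49 to -0.25. For *PMA1* it ran from -0.58 to -0.35 and for *HRK1* from -0.36 to -0.27. The range of *PMP2* was wider for its size, from -0.62 to -0.15. Among the members not called, *PMP1* ran from -0.14 to -0.07, *PTK2* from 0.04 to 0.26, and *PMA2* changed sign, from -0.15 to 0.05.

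**Figure D2:**
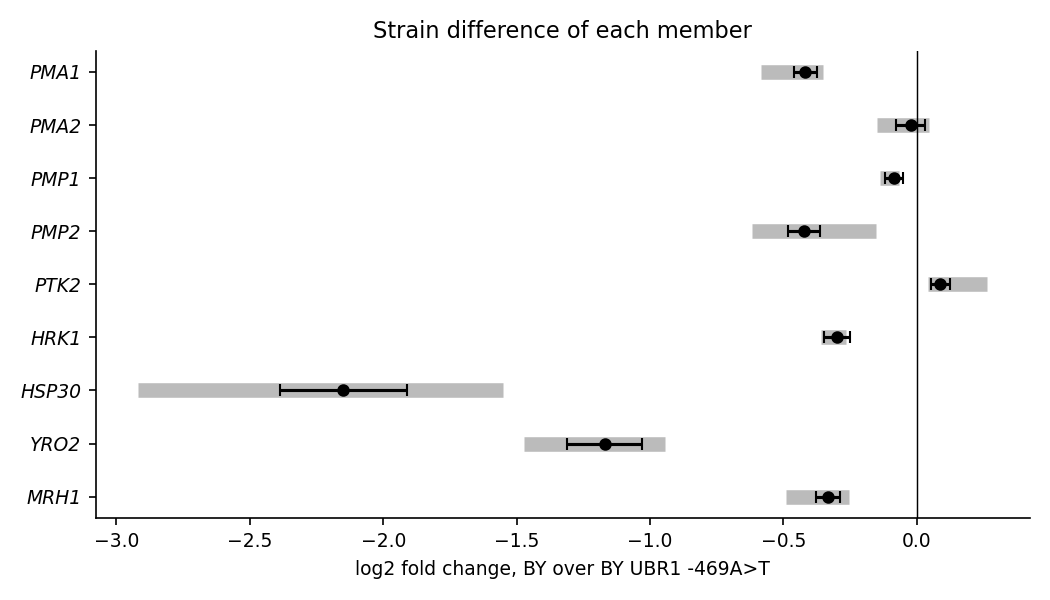
Log2 fold change of each member between strains, negative where the level was lower in BY. Points are the values with 2 surrogate variables with their standard errors, and grey bands span the lowest to the highest value over the 20 other fits, which lie below 0 throughout except for *PMA2* and *PTK2*.

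By level per length, the order of the mean TPM over all libraries was *PMP1*, *PMP2*, *MRH1*, *PMA1*, *HSP30*, *YRO2*, *PTK2*, *HRK1* and *PMA2*. The first 4 kept their order in all 10 libraries in TPM. The places of *PMP1* and *PMP2* rest on short effective lengths (37.3 to 54.3 and 42.7 to 57.9 bases), and their order by another length was not tested. The order of the mean levels of *HSP30* and *YRO2* differed by strain, which was not tested. *HSP30* lay above *YRO2* in 1 of 5 BY libraries (means of 78.5 and 116 TPM) and in 3 of 5 edited libraries (397 and 285 TPM). *PTK2* lay above *HRK1* in 5 of 5 BY libraries and 3 of 5 edited libraries. The ratio of *HSP30* to *YRO2* ran from 0.179 to 1.118 in BY and from 0.736 to 1.80 in the edited strain. *MRH1*, the relative with the higher level, had 714 ± 116 TPM in BY and 945 ± 137 in the edited strain (SD, n = 5 each), and *HSP30* had 78.5 ± 83.2 and 397 ± 216.

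Whether the members varied together was asked within strains, from the deviation of each library's log2 CPM from its strain mean, which does not hold the contrast that chose them. The 5 BY libraries fell in the same order in 5 members, namely *HSP30*, *YRO2*, *MRH1*, *PMA1* and *PMP2*. That order was the replicate number, rising from 1 to 5. In the edited strain, *HSP30*, *MRH1* and *PMA1* shared 1 order, replicates 1, 2, 4, 3 and 5 from the lowest up. Over the 10 libraries, the deviations of *YRO2* followed those of *HSP30* with r = 0.99 (rho = 0.98), the highest r of the 5986 other tested transcripts. The exact two-sided permutation test within strains gave p = 0.00014 and an adjusted p of 0.0073 over the 5986 transcripts. This test treats the libraries of a strain as exchangeable, so a shared trend along replicate number cannot be told from a relation between members. *MRH1* had r = 0.95 (rho = 0.98) with p = 6.9e-05, the smallest that the arrangements can give, and an adjusted p of 0.0056.

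Outside the *HSP30* relatives, *PMP2* had r = 0.91 (rho = 0.95, exact permutation p = 0.00014, adjusted p = 0.0073). *HRK1* had r = 0.89 (rho = 0.81, exact permutation p = 0.0019, adjusted p = 0.017) and *PMA1* r = 0.86 (rho = 0.95, exact permutation p = 0.00049, adjusted p = 0.010). The other 3 members did not pass. *PMA2* had r = 0.64 (rho = 0.48, exact permutation p = 0.11, adjusted p = 0.20), *PMP1* r = 0.28 (rho = 0.59, exact permutation p = 0.39, adjusted p = 0.50) and *PTK2* r = -0.44 (rho = -0.61, exact permutation p = 0.18, adjusted p = 0.28). Thus 5 of the 8 members passed an adjusted p under 0.05, beside 29.8% of all transcripts. The p-values of rho were 0.00021 for *YRO2*, *MRH1* and *PMP2*, 6.9e-05 for *PMA1*, 0.012 for *HRK1*, 0.078 for *PTK2*, 0.088 for *PMP1* and 0.21 for *PMA2*. Without the libraries in which *HSP30* lay farthest from the median (BY replicates 1 and 5), r was 0.97 for *MRH1*, 0.96 for *YRO2*, 0.92 for *PMA1*, 0.91 for *PMP2*, 0.78 for *HRK1*, -0.82 for *PTK2*, 0.64 for *PMP1* and 0.16 for *PMA2*.

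**Figure D3:**
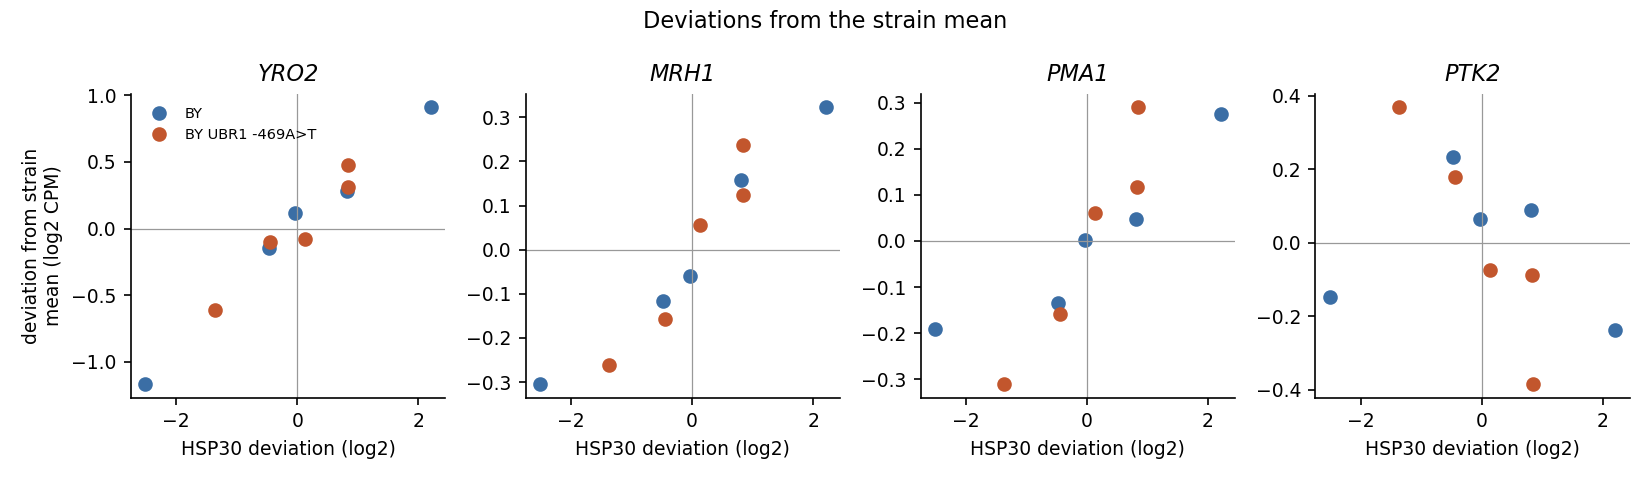
Deviation of log2 CPM from the strain mean in each of the 10 libraries, with *HSP30* on the horizontal axis and *YRO2*, *MRH1*, *PMA1* or *PTK2* on the vertical axis (scales differ between panels). In both strains the deviations of *YRO2* (r = 0.99) and *MRH1* (r = 0.95) rise with those of *HSP30*. *PTK2* has r = -0.44 over all libraries and r = -0.89 without BY replicate 1.

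Many transcripts shared 1 axis of variation. The first principal component of the deviations of all tested transcripts held 59.7% of the variance within strains, and 39.9% of transcripts followed it with an r of at least 0.8 in size. Along this component the edited libraries rose with replicate number, from -18.3 to 15.4. BY libraries rose from -12.3 in replicate 2 to 19.7 in replicate 5, with replicate 1 at -8.64. *PMA1* followed the component with r = 0.97, *MRH1* with 0.94, *PMP2* with 0.93, *HSP30* with 0.84, *YRO2* with 0.77 and *PTK2* with -0.83. With this component taken out of every transcript, r with *HSP30* was 0.98 for *YRO2*, 0.90 for *MRH1* and 0.82 for *HRK1*, and 0.40 for *PMA1* and 0.66 for *PMP2*. *PTK2* then had r = 0.82 and *PMP1* r = -0.57, both of the sign opposite to before. The exact permutation test then passed 0 of the 8 members and 0 of all transcripts after adjustment, and 5 members had an unadjusted p under 0.05. Without edited replicate 1 it also passed 0 members, with 5 at an unadjusted p under 0.05, and without BY replicate 5 it passed 3. With the mean of each replicate number taken out in place of the component, it again passed 0 (1 member at an unadjusted p under 0.05), and r was 0.997 for *YRO2*, 0.80 for *MRH1* and -0.19 for *PMA1*. In that setting same-numbered libraries of the strains mirror each other, so each r rests on 1 value per replicate number. The smallest p that the permutation test could give was 0.0083, so 0 passing after adjustment decides little.

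**Figure D4:**
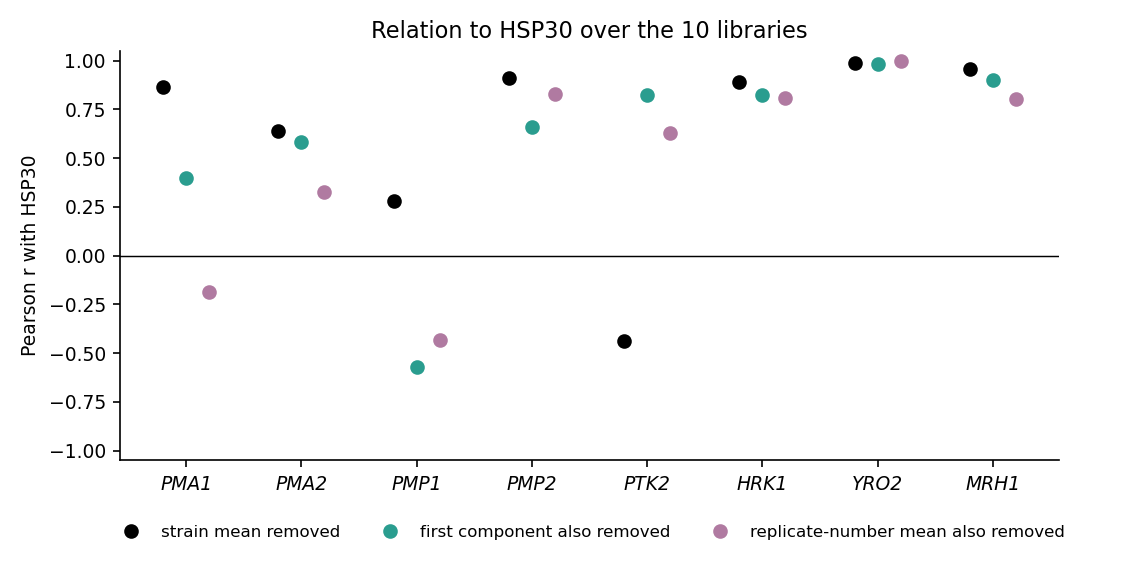
Pearson r of each member with *HSP30* over the 10 libraries (vertical axis from -1 to 1), after the strain mean is taken out, after the first principal component is also taken out, and after the mean of each replicate number is also taken out. In the last setting same-numbered libraries mirror each other, so each r rests on 1 value per replicate number. *YRO2* keeps an r of 0.98 or more in all 3 settings, *MRH1* and *HRK1* stay at 0.80 or more, and *PMA1*, *PMP1* and *PTK2* change sign in at least 1.

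Within strains, *PTK2* had r = -0.81 with *PMA1*, r = -0.89 with *PMP1* and r = 0.08 with *PMA2*, while *PMA1* had r = 0.95 with *MRH1* and r = 0.88 with *PMP2*. These pairs are a description over the same 10 libraries, without tests.

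The transcripts outside the family whose deviations were most like those of *HSP30* over the 10 libraries were *PHM8* (r = 0.99), *HAA1* (r = 0.98), *PUN1* (r = 0.98), *SWC7* (r = 0.98) and *TPO2* (r = 0.98). *PHM8* encodes a lysophosphatidic acid phosphatase, *HAA1* a transcription factor of the response to weak acids, *PUN1* a plasma membrane protein and *TPO2* a polyamine exporter. *SWC7*, a subunit gene of the SWR1 chromatin remodelling complex, had only 2.20 CPM on average in BY and 2.80 in the edited strain. *TPO2* shared the wide range as well as the pattern, with 68.5 ± 68.4 normalized CPM in BY and 286 ± 138 in the edited strain (SD, n = 5 each). *HAA1* itself was nearly level between strains, with 115 ± 13.5 and 128 ± 9.09 normalized CPM. The transcripts most like *PMA1* were others, namely *SPC72* (r = 0.99), *TRS31* (r = 0.99), *ASP1* (r = 0.99), *YLR278C* (r = 0.98) and *SUI2* (r = 0.98). *SPC72* encodes a part of the spindle pole body, *TRS31* a subunit of a vesicle tethering complex, *ASP1* the cytosolic asparaginase and *SUI2* a subunit of a translation initiation factor.

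Genes around the family were counted in 6 lists, chosen with earlier results of these data known. Of 11 tested genes of the weak acid response, 7 were lower in BY at an adjusted p under 0.1 (edgeR's quasi-likelihood test) and 0 higher, beside 11.9% and 9.32% of all tested transcripts. Their median log2 fold change was -0.37, against -0.0012 for all. *TPO2* changed the most at -1.69 (standard error 0.11), followed by *COM2*, a transcription factor gene, at -0.65 (standard error 0.069). Without surrogate variables none of these calls remained, as the 0 calls over all transcripts given above imply. This list and the transcripts most like *HSP30* share *TPO2*, *PHM8* and *HAA1*.

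The counts of the next lists stand beside 11.9% of all tested transcripts called lower in BY and 9.32% called higher. Of 8 genes for the trafficking and regulation of Pma1, 2 were lower in BY and 6 did not pass, with a median of -0.02. Those 2 were *AST1* at -0.45 (standard error 0.062), which takes part in delivering Pma1 to the cell surface, and its relative *AST2* at -0.12 (standard error 0.038). Among 8 further kinases of the family that holds *PTK2* and *HRK1*, 1 was lower in BY and 3 were higher, with a median of 0.03. *HAL5*, a regulator of potassium transporters, was at -0.34 (standard error 0.045). *NPR1*, a regulator of nutrient permeases, was at 0.29 (standard error 0.068), and *PRR2* was at 0.41 (standard error 0.11).

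Beside the counts below, 11.9% of all tested transcripts were called lower in BY and 9.32% higher. The vacuolar proton ATPase is the other large proton pump of the cell. Of its 19 genes 1 was lower in BY, *VPH1* at -0.20 (standard error 0.047), and 1 was higher, *STV1* at 0.09 (standard error 0.034), which encode alternative forms of the same subunit. The other 17 did not pass and the median was -0.05. Of 11 genes for potassium, sodium and proton transport 0 were lower and 2 higher, with a median of 0.04. *ENA1*, a sodium pump, was at 0.68 (standard error 0.092), a value that is uncertain because *ENA1*, *ENA2* and *ENA5* are near-identical copies, and the potassium channel gene *TOK1* was at 0.09 (standard error 0.031). Of 12 genes of eisosomes, which are furrows of the plasma membrane, 2 were lower and 5 higher, with a median of 0.10. *NCE102* was at -0.26 (standard error 0.077) and *PUN1* at -0.21 (standard error 0.040), whereas the kinase gene *PKH1* was at 0.24 (standard error 0.045) and *FHN1*, a copy of *NCE102*, at 0.24 (standard error 0.066).

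**Figure D5:**
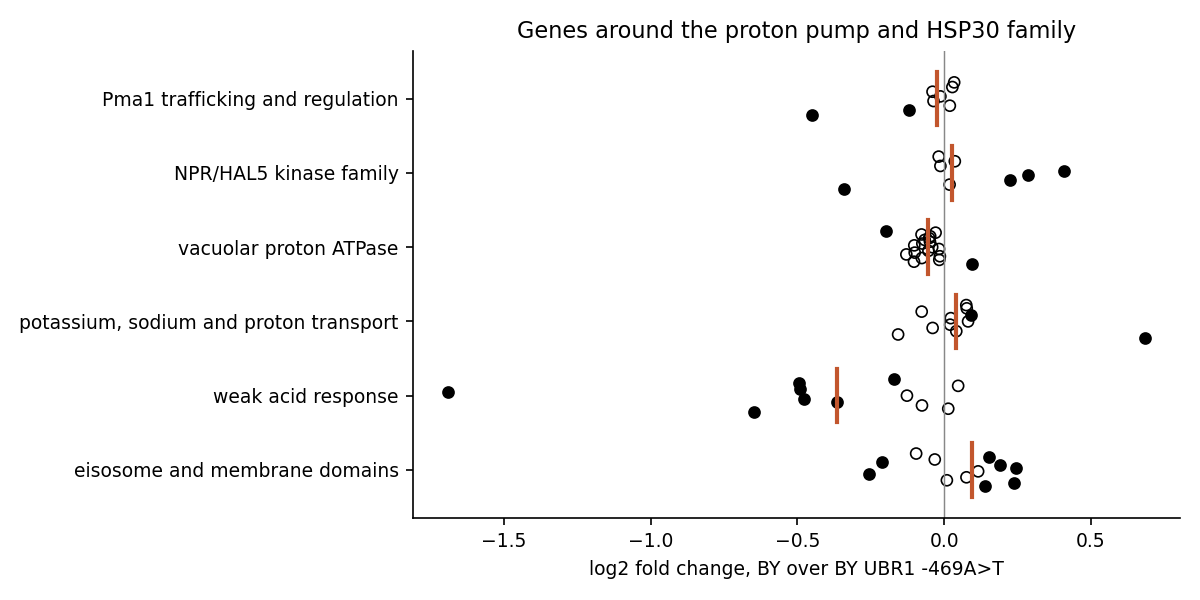
Log2 fold change of each tested gene in the 6 lists, negative where the level was lower in BY. Filled points passed an adjusted p under 0.1, open points did not, and the vertical bar is the median of the list, which lies at -0.37 for the weak acid response and between -0.05 and 0.10 for the other 5.

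Genes beside the members were compared in the same fit. Of the 17 tested genes next to a member, 0 were called by edgeR's quasi-likelihood test (2 had an unadjusted p under 0.05), beside 21.2% of all tested transcripts. The log2 fold changes of these 17 genes ran from -0.09 to 0.13. Stress motifs were searched on both strands of the 500 bases before each start codon of the R64 annotation, which include the untranslated leader. The stress response element, AGGGG, occurred before 34.4% of 5915 genes and before 3 members, *PMA1* (1 match), *PMA2* (2 matches) and *PTK2* (1 match). The heat shock element, searched as GAANNTTC or TTCNNGAA, which do not overlap in letters with the first motif, occurred before 35.4% of genes and before 2 members, *HRK1* and *MRH1*. *HSP30*, *YRO2*, *PMP1* and *PMP2* held neither of these letter strings in this window.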

How the data were processed

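Polyadenylated RNA of 10 cultures was sequenced, 5 per strain, grouped by the genotype in the labels. The authors trimmed reads with fastp, pseudoaligned them to Ensembl release 96 transcripts with Kallisto and deposited 3 values per transcript, its estimated count, its TPM and its effective length. The deposited estimated counts are unnormalized, and the deposited TPM values are scaled within each library and keep no depth. The tables' build is not given in the sources used here. All 9 members have the same length in R64, whose coordinates and sequences were used, and 99.9% of lengths are multiples of 3, so they are coding lengths.

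Counts were rounded. Transcripts needed 10 counts or more, and an effective length of 1 or more, in each library. They were tested with edgeR 4.0.16 in R 4.3.3 (quasi-likelihood test, TMM, 2 surrogate variables from sva 3.50.0, Benjamini-Hochberg adjusted p under 0.1). DESeq2 1.42.0 was an alternative. A standard error is the log2 fold change over the square root of F. The study's model also held extraction batch and optical density, which were not used here, nor was its filter on transcript integrity. At the same threshold the study reported far fewer differentially expressed transcripts than the fit here called. Both strains were in each extraction batch and all libraries were made in 1 batch. The methods call the cultures independent biological replicates. Replicates differed beyond counting error (chi-square over its degrees of freedom from 67.5 to 544), so each library counts once.

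Relations to *HSP30* used log2 CPM deviations from the strain mean, with p adjusted over all 5986 other transcripts in place of the 8 members first planned. Named genes are the members, *UBR1*, the 5 transcripts most like *HSP30* and the 5 most like *PMA1*, and up to 2 genes per list and direction with the largest change among those called. Members and lists were chosen with earlier results of these data known. Both procedures were tested on simulated data. For edgeR these were drawn from the fitted model with 2 surrogate variables, so they do not test the choice of that model. The alternatives covered the tool, the number of surrogate variables, the minimum count, a replicate block, the threshold, the normalization and each library left out.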

Additional observations from a re-analysis of the deposited data

How the results depend on the processing

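Members called numbered 6 and transcripts called 1269 with edgeR and 2 surrogate variables. Without surrogate variables the numbers were 0 and 0 (7 members and 1400 transcripts at an unadjusted p under 0.05; DESeq2 with 2 surrogate variables called 8 and 1430), and with 1 surrogate variable 1 and 43. With 2 surrogate variables plus a replicate block they were 2 (*PMA1* and *YRO2*) and 43, and with the replicate block alone 8 and 2373. An adjusted p under 0.05 left 756 transcripts. With each library left out, members called ran from 6 to 8 and transcripts called from 246 (without BY replicate 5) to 1289, with 329, 699 and 801 without BY *UBR1* -469A>T replicates 2, 3 and 4. None of the 180 other values of the members' log2 fold changes moved by more than the SD of log2 CPM within strains. That yardstick is wide beside the standard errors, at 1.40 against 0.24 for *HSP30* and 0.29 against 0.061 for *PMP2*. It therefore says little about stability. Of the list medians, those of eisosomes and of potassium, sodium and proton transport turned from 0.10 to -0.04 and from 0.04 to -0.02 with the replicate block and 2 surrogate variables. That of the kinase family turned from 0.03 to -0.0011 without BY replicate 2, and was 0.17 without surrogate variables and 0.18 with the block alone. Same-numbered libraries correlated at 0.29, 0.52, -0.01, 0.48 and 0.68 for numbers 1 to 5. The main results did not take the numbers as pairs. Number 3 showed no correlation, although all other numbers did. Both number 3 libraries lay near the middle of the first principal component (-4.53 in BY and 3.93 in the edited strain), so their value cannot decide this. Whether the numbers are pairs was not tested. The block alone raised the transcripts called from 0 to 2373, so the results depend on this choice. Members related to *HSP30* numbered 5, and 0 with the first principal component removed, 0 with the replicate block (1 member at an unadjusted p under 0.05; smallest possible p 0.0083), and 0 to 6 with each library left out, 0 without BY *UBR1* -469A>T replicate 1 and 3 without BY replicate 5. Under the replicate block the r of *PMA1* with *HSP30* reversed to -0.19. The cause of these changes was not tested. The counts of the members were at least 889 in every library, and whether depth played a part was not tested.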
